A study of Saccharomyces cerevisiae with 4 samples.

Results

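The genes described here are those of the yeast respiratory chain, the mitochondrial ATP synthase and the TOM and TIM machinery that imports proteins into mitochondria. They were selected by a rule on names that uses no measured value, although the set was proposed with earlier results of these data known. A probe had to carry exactly 1 gene symbol, have a value on all 4 arrays, and have a symbol formed from COX, QCR, ATP, SDH, NDE, NDI, CYT, CYC, COR, RIP, INH, STF, TIM, TOM or SCO and a number. The rule found 69 probes of 65 genes among 3099 named genes measured, and 5946 features in all when probes without a single gene name are counted. The R64 gene table lists 99 genes with such names, and the other 34 had no measured value under their own name. The missing genes include those that mitochondria encode themselves for complex IV (COX1, COX2, COX3) and the ATP synthase (ATP6, ATP8), and also COX4, COX5B, ATP1, TOM40, TIM44 and TIM50. They were not analysed here.

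Both RNAs on an array came from derivatives of W303-1A, a budding yeast laboratory strain, and the 4 arrays carried probes for yeast open reading frames and were read in 2 colours. One strain made CadA, a P-type ATPase from the bacterium Listeria monocytogenes that transports metal ions, and the other made the D398A mutant of the same protein. Cells of both strains had grown at 30 °C to an OD600 of 0.4 in minimal medium with amino acids and adenine and then received 1 µM cadmium for 1 h, so the comparison asks how the working transporter and its mutant differ under the same cadmium dose. The dyes were swapped: the CadA strain was in Cy5 on arrays 1 and 3, and in Cy3 on the other two. Both groups carried a foreign protein and cadmium, and untreated cells were not analysed here. Nothing in the labels tells whether the arrays hold RNA of separate cultures, and the p-values therefore rest on array-to-array spread that could be technical. A ratio holds no level of either strain, so the labelled strain could not be checked against its markers.

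Values are log2 ratios between the strains, and an SD is over the 4 arrays unless stated otherwise. The sources do not give the dye that forms the numerator, nor whether the table already runs 1 way on all arrays. Counts and group medians are therefore given in 2 readings, and single genes in the reading named beside them. In turned signs the arrays with CadA in Cy5 (1 and 3) had their sign reversed, and this reading leads. In deposited signs every value stands as in the table. Arrays 2 and 4 have the same value in both readings, and no strain is named for either side. Which reading holds the difference between the strains and which a difference between the dyes cannot be told apart. Over all probes the SD was 0.87 and 0.95 on arrays 1 and 2 and 0.46 and 0.47 on arrays 3 and 4, so the first pair carries the widest values. The number of arrays limits the precision.

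Electrons enter the yeast respiratory chain from single-protein NADH dehydrogenases and from complex II, succinate dehydrogenase, because this yeast has no complex I. They pass through coenzyme Q to complex III, by cytochrome c to complex IV, and there to oxygen, and the proton gradient so built drives the ATP synthase. Most subunits are made in the cytosol and enter through the TOM complex of the outer membrane and the TIM complexes of the inner membrane. On glucose this yeast ferments and represses many of these genes, and the Hap2, Hap3, Hap4 and Hap5 proteins activate many of them.

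No gene of the group passed the threshold in either reading. In turned signs 0 of 65 had a limma adjusted p under 0.05, against 0.0% of all features, and 0 of 65 had an unadjusted p under 0.05, against 1.88%. A positive mean was found for 18 of 65 genes (27.7%), against 47.4% of all features, and the median over the 65 means was -0.09, against -0.015. Of the 65 genes, 2 had a mean of 0.5 or more in size, or 3.08%, against 8.73% of all features. The low median came with array 2: the group's medians were -0.05, -0.59, 0.08 and -0.07 on arrays 1 to 4, and without array 2 the median was -0.02 and 28 genes had a positive mean. With limma's array weights the median was -0.002 and 32 genes had a positive mean. With these weights 0 of the 65 genes passed the threshold, against 0.0673% of all features.

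In turned signs 3 of 65 genes (4.62%) had 1 sign on every array, against 6.98% of all features. None was positive, against 3.4%, and the 3 negative ones, against 3.58%, were SDH5, QCR9 and TIM22. SDH5, which helps to attach flavin to Sdh1, read -0.11, -0.63, -0.08 and -0.02 on arrays 1 to 4. QCR9, a small subunit of complex III, read -0.03, -0.63, -0.05 and -0.14, and TIM22, the channel of the carrier translocase, read -0.34, -0.80, -0.14 and -0.03. In each of them array 2 was the lowest. The other values lay within 0.14 of 0 in SDH5 and QCR9, whereas TIM22 also read -0.34 on array 1. In deposited signs none of the 3 kept 1 sign, with means of -0.11, -0.17 and -0.09.

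**Figure D1:**
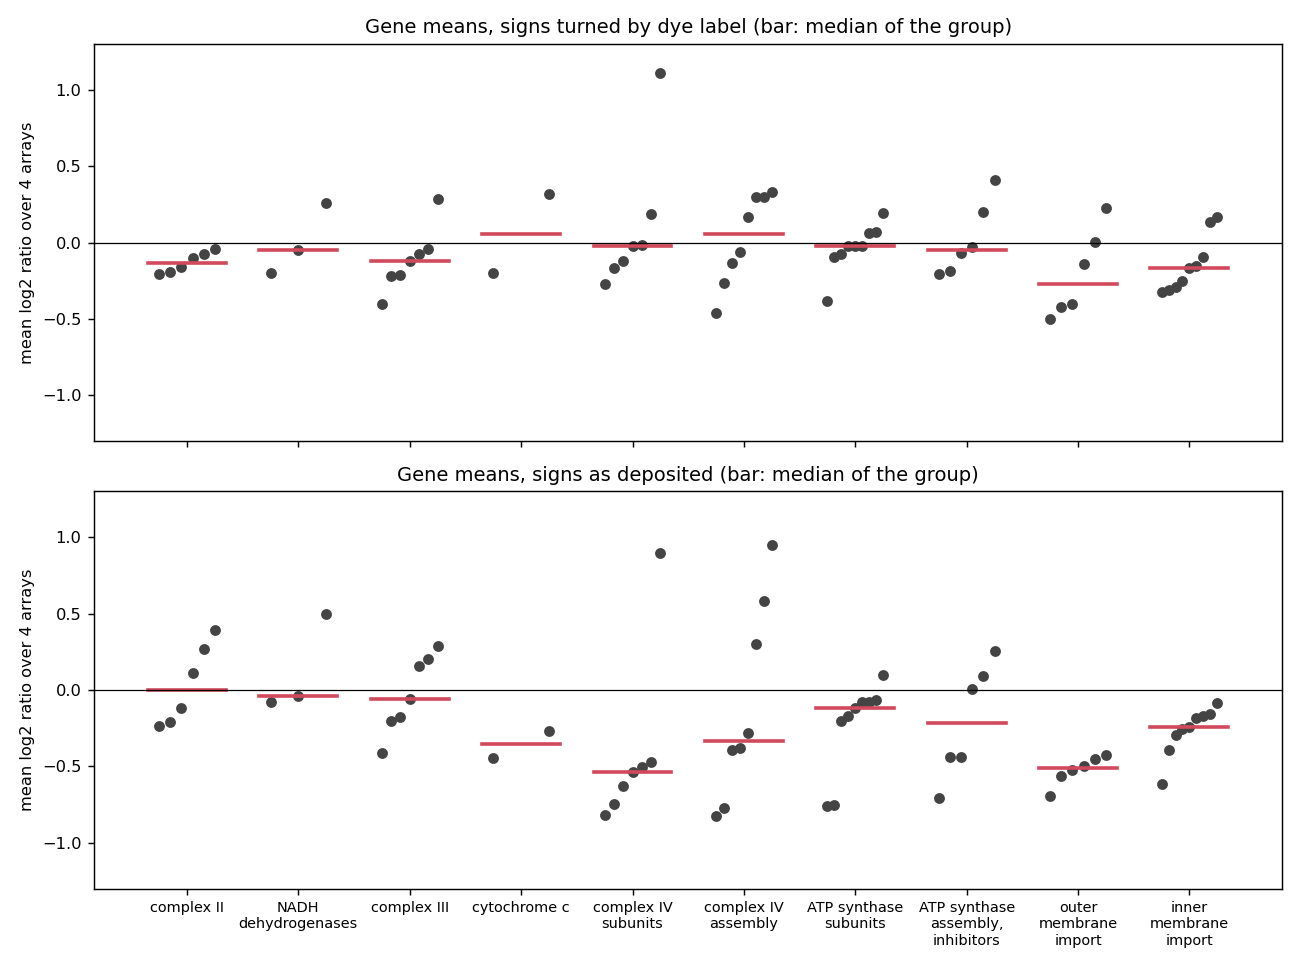
Each point is 1 gene's mean log2 ratio over 4 arrays, in signs turned by the dye label (upper panel) and in signs as deposited (lower panel), and each bar is the median of the group. In the upper panel group medians lie between -0.27 and 0.06, and in the lower panel complex IV subunits (-0.54) and outer membrane import (-0.51) lie lowest. The genes SDH9 and CYC8 are in no group.

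The dehydrogenases that feed electrons into the chain lay close to 0 in turned signs. All 6 measured genes placed in complex II had a negative mean, in the narrow range from -0.21 to -0.04 (median -0.13). The subunit genes SDH1, SDH2, SDH3 and SDH4 averaged -0.04 ± 0.61, -0.16 ± 0.40, -0.10 ± 0.48 and -0.07 ± 0.48, each less than its own SD. The assembly gene SDH7 averaged -0.19 ± 0.30. Complex II medians were -0.15, -0.35, -0.04 and 0.23 on arrays 1 to 4, so array 4 went against the other arrays.

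Among the NADH dehydrogenases, NDI1 faces the matrix, and NDE1 and NDE2 are a pair of related enzymes that face the other side of the inner membrane. NDE1 read -0.39, 1.14, -0.09 and 0.37 (mean 0.26 ± 0.67). NDE2 read -0.29, -0.64, -0.04 and 0.16 (mean -0.20 ± 0.35). The pair agreed in sign on arrays 1, 3 and 4 and lay on opposite sides on array 2, where NDE1 was highest. NDI1 averaged -0.05 ± 0.39, with 2 arrays on each side.

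Complex III and cytochrome c also gave means smaller than their spread in turned signs. Of 7 measured genes of complex III, counting the haem lyase gene CYT2, 1 had a positive mean (median -0.12). It was QCR8, a small subunit, at 0.29 ± 0.52, and the lowest was COR1, a core subunit, at -0.40 ± 0.68. Both changed side in deposited signs, to -0.41 ± 0.39 for QCR8 and 0.29 ± 0.75 for COR1. The other core subunit gene QCR2 averaged -0.22 ± 0.55, the Rieske iron-sulphur protein gene RIP1 -0.07 ± 0.91 and the cytochrome c1 gene CYT1 -0.12 ± 0.56. The 2 isoforms of cytochrome c, the mobile carrier between complexes III and IV, lay on opposite sides on average. CYC1, the main aerobic isoform, read 1.34, -0.18, 0.18 and -0.07 (mean 0.32 ± 0.70), and CYC7, the minor isoform, read 0.27, -0.72, -0.14 and -0.21 (mean -0.20 ± 0.41). The mean of CYC1 rested on array 1. Within each array CYC1 lay above CYC7 in turned signs. In deposited signs CYC1 lay below CYC7 on arrays 1 and 3 and above it on arrays 2 and 4. The difference was not tested.

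Complex IV, cytochrome c oxidase, held the gene with the largest mean of the group in turned signs. COX5A (YNL052W), the aerobic isoform of subunit V, read 0.57, 3.54, -0.16 and 0.47 on arrays 1 to 4 (mean 1.11 ± 1.65, 2.15-fold). Array 2 stood far above the others, and without it the mean was 0.30. Its limma adjusted p was 1.00 over all features. The mean was 0.63 with each print block centred and 0.49 with array weights. The hypoxic isoform gene COX5B was not analysed here, so the pair could not be compared. Of all features 0.891% had a mean of 1 or more, and COX5A was 1 of 65 here.

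The other 6 measured subunits of complex IV averaged between -0.27 and 0.18 in turned signs, with SDs between 0.73 and 1.00. Of the 7 subunits, 2 had a positive mean (median -0.02). The array medians of the subunits were 0.57, -1.11, 0.22 and -0.19, positive where CadA was in Cy5 and negative where it was in Cy3. The turned signs therefore cancelled a shift that ran the same way on all 4 arrays as deposited, which is described further on.

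Of 8 measured genes for the assembly of complex IV, 4 had a positive mean in turned signs (median 0.05). COX10, which makes haem O on the way to haem A, read -0.10, 1.67, -0.40 and 0.16 (mean 0.33 ± 0.92). It was positive through array 2 and averaged -0.11 without it. COX17, a copper chaperone of the intermembrane space, read 0.07, -1.38, 0.56 and -1.09 (mean -0.46 ± 0.93). Its arrays with CadA in Cy5 were positive and those with CadA in Cy3 negative. SCO1 and SCO2, a related pair that handles copper for the Cox2 subunit, averaged -0.13 ± 1.05 and -0.06 ± 0.72.

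The ATP synthase subunits lay close to 0. The 9 genes averaged between -0.38 and 0.20 in turned signs, and 3 were positive (median -0.02). ATP2, for the catalytic beta subunit of the F1 head, averaged 0.07 ± 0.34, ATP3, for the central stalk, -0.02 ± 0.41, and ATP5, for the protein that joins the head to the peripheral stalk, -0.07 ± 0.35. The lowest was ATP20, for subunit g of the membrane part, at -0.38 ± 0.41, and the highest was ATP7, for a peripheral stalk subunit, at 0.20 ± 0.75. TIM11 carries an import name but encodes subunit e of the ATP synthase, and it averaged -0.02 ± 0.62.

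Assembly factors and regulators of the ATP synthase lay on both sides of 0. STF2, which was described as a stabilising factor for the inhibitor of the enzyme, read 0.35, 0.95, 1.33 and -1.01 (mean 0.41 ± 1.03). Arrays 1 to 3 were positive and array 4 went against them, so that the mean was 0.88 without array 4. In deposited signs its mean was on the other side, at -0.44 ± 1.01. INH1, the inhibitor itself, averaged -0.21 ± 0.57. Among assembly genes, ATP12 read 2.16 on array 1 and between -0.93 and -0.09 on the others (mean 0.20 ± 1.35), and ATP10, ATP11 and ATP23 averaged between -0.18 and -0.03.

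Import genes had the lowest medians in turned signs. For the outer membrane the median over 6 genes was -0.27, with 2 positive means, and for the inner membrane it was -0.16 over 9 genes, with 2 positive means. TOM7, a small subunit of the outer membrane complex, read 0.18, -2.07, 0.21 and -0.33 (mean -0.50 ± 1.07). TOM5, another small subunit, read 0.15, -1.84, 0.18 and -0.10 (mean -0.40 ± 0.96). In both genes array 2 made the mean, and TOM7 averaged 0.02 without it. TOM20, a receptor, read -0.22, -0.79, 0.22 and -0.91 (mean -0.42 ± 0.52), with array 3 on the other side. The receptor gene TOM70 averaged 0.23 ± 0.69.

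Without array 2 the median was 0.05 for the outer membrane and -0.02 for the inner membrane. Of the inner membrane genes, TIM23 and TIM17 form the channel for presequences and averaged -0.31 ± 0.59 and -0.10 ± 0.59. TIM18, of the carrier translocase, is related in sequence to SDH4 of complex II. TIM18 read -0.22, -1.12, 0.23 and -0.05 (mean -0.29 ± 0.58) and SDH4 read -0.20, -0.66, 0.47 and 0.11 (mean -0.07 ± 0.48). The pair agreed in sign on arrays 1 to 3.

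In deposited signs the complexes separated more. No gene passed the threshold here either: 0 of 65, against 0.0% of all features, with the smallest limma adjusted p of the group at 0.42. An unadjusted p under 0.05 was reached by 6 of 65 genes (9.23%), against 11.7% of all features. On every array 17 of 65 genes (26.2%) kept 1 sign, against 24.8%, a share near the background. Of these, 11 were negative (16.9% of 65, against 12.3%) and 6 positive (9.23%, against 12.4%). A positive mean was found for 17 of 65 genes (26.2%), against 46.5% of all features, and the median was -0.20, against -0.03.

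Complex IV subunits had the lowest median of the 10 groups in deposited signs, at -0.54, with 6 of 7 means negative. COX6 (YHR051W) read -0.99, -1.20, -0.61 and -0.47 on arrays 1 to 4 (mean -0.82 ± 0.33, limma adjusted p = 0.42). COX12 (YLR038C) read -0.32, -0.59, -0.84 and -1.23 (mean -0.74 ± 0.39, limma adjusted p = 0.42). All values of both genes lay below 0. COX8 read -0.51, -1.61, -0.22 and -0.19 (mean -0.63 ± 0.67), and COX7 read -0.33, -1.11, -0.50 and -0.20 (mean -0.54 ± 0.40). These 4 of 7 subunits were negative on every array. COX9 and COX13, also small subunits without catalytic metal centres, averaged -0.51 ± 0.73 and -0.47 ± 0.77 with 2 arrays on each side, and COX5A at 0.898 ± 1.81 stood alone above 0.

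Assembly genes of complex IV lay at both ends in deposited signs. The copper genes were low: SCO1 read -0.67, -1.49, -0.71 and -0.43 (mean -0.83 ± 0.46, limma adjusted p = 0.42). COX17 read -0.07, -1.38, -0.56 and -1.09 (mean -0.78 ± 0.58, limma adjusted p = 0.42). SCO2, in contrast, was below 0 on arrays 1 and 2 and above 0 on arrays 3 and 4. It read -0.78, -0.89, 0.34 and 0.20 (mean -0.28 ± 0.64). COX20 (YDR231C), a chaperone of Cox2, was the highest gene of the group and read 1.29, 1.77, 0.28 and 0.46 (mean 0.95 ± 0.70, limma adjusted p = 0.42). COX10 was positive on all 4 arrays too, at 0.10, 1.67, 0.40 and 0.16 (mean 0.58 ± 0.74). Most of its mean came from array 2.

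**Figure D2:**
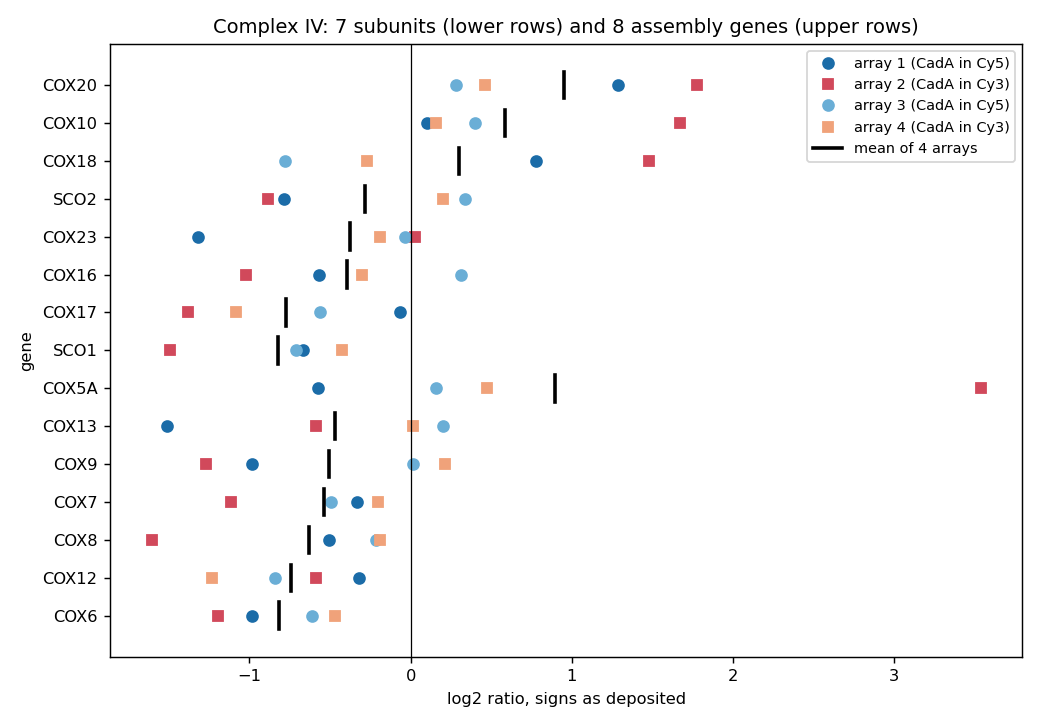
Log2 ratios in deposited signs of the 7 subunit genes (lower rows) and 8 assembly genes (upper rows) of complex IV on each array, with circles for arrays with CadA in Cy5, squares for arrays with CadA in Cy3 and a black bar for the mean. COX6, COX12, COX8, COX7, SCO1 and COX17 lie below 0 on all 4 arrays, COX20 and COX10 above 0 on all 4, and COX5A reaches 3.54 on array 2.

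Outside complex IV, ATP18 (YML081C-A), for a small membrane subunit of the ATP synthase, was the other low gene with an unadjusted p under 0.05. Averaged over its 3 probes it read -0.76, -1.19, -0.88 and -0.20 (mean -0.76 ± 0.41, limma adjusted p = 0.42). It was negative on every array, although 1 of its 3 probes was positive on array 4. ATP14 (mean -0.75 ± 0.80) and ATP12 (mean -0.71 ± 1.10) were nearly as low on average, each with array 1 at or beyond -1.56 and 1 array above 0. The F1 genes ATP2, ATP3 and ATP15 averaged -0.08, -0.17 and -0.20, and the median of the 9 subunits was -0.12.

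A positive mean in deposited signs was found for 3 of 6 genes of complex II, 1 of 3 NADH dehydrogenases and 3 of 7 genes of complex III. SDH1, the flavin subunit of complex II, read 0.83, 0.06, 0.05 and 0.64 (mean 0.40 ± 0.40). NDE1 read 0.39, 1.14, 0.09 and 0.37 (mean 0.50 ± 0.45). CYT2 read 0.37, 0.15, 0.13 and 0.17 (mean 0.21 ± 0.11). ATP23, a protease that also assists assembly of the ATP synthase, read 0.14, 0.31, 0.42 and 0.15 (mean 0.25 ± 0.14). These genes were positive on all 4 arrays, and none had an unadjusted p under 0.05. The median was -0.0004 for the 6 complex II genes, with 3 positive, and -0.06 for complex III. SDH9, which shares the SDH name but was placed in no group, is not counted there and averaged 0.34 ± 0.56. Cytochrome c was low for both isoforms: CYC1 was negative on all 4 arrays (mean -0.45 ± 0.60), and CYC7 averaged -0.27 ± 0.35.

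All 15 import genes of the naming rule had a negative mean in deposited signs, against 3180 of all 5946 features. Import genes with other names lay on both sides of 0. Of 12 such genes measured, 7 had a positive and 5 a negative mean in deposited signs (median 0.09). The lengths of these 12 were not compared with those of the 15, and deposited means moved with coding length, as described below. The medians were -0.51 for 6 outer membrane genes and -0.24 for 9 inner membrane genes. TOM7 averaged -0.69 ± 0.92, TOM5 -0.56 ± 0.85 and TOM22, the central receptor, -0.50 ± 0.37, each negative on all 4 arrays. TOM22 read -0.92, -0.65, -0.09 and -0.34, and so did not rest on array 2, unlike TOM5 and TOM7. TOM70 read -0.75, -0.72, -0.75 and 0.13 (mean -0.52 ± 0.44), with array 4 apart. No inner membrane gene was negative on every array, and the lowest was TIM54, of the carrier translocase, at -0.62 ± 0.75.

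**Figure D3:**
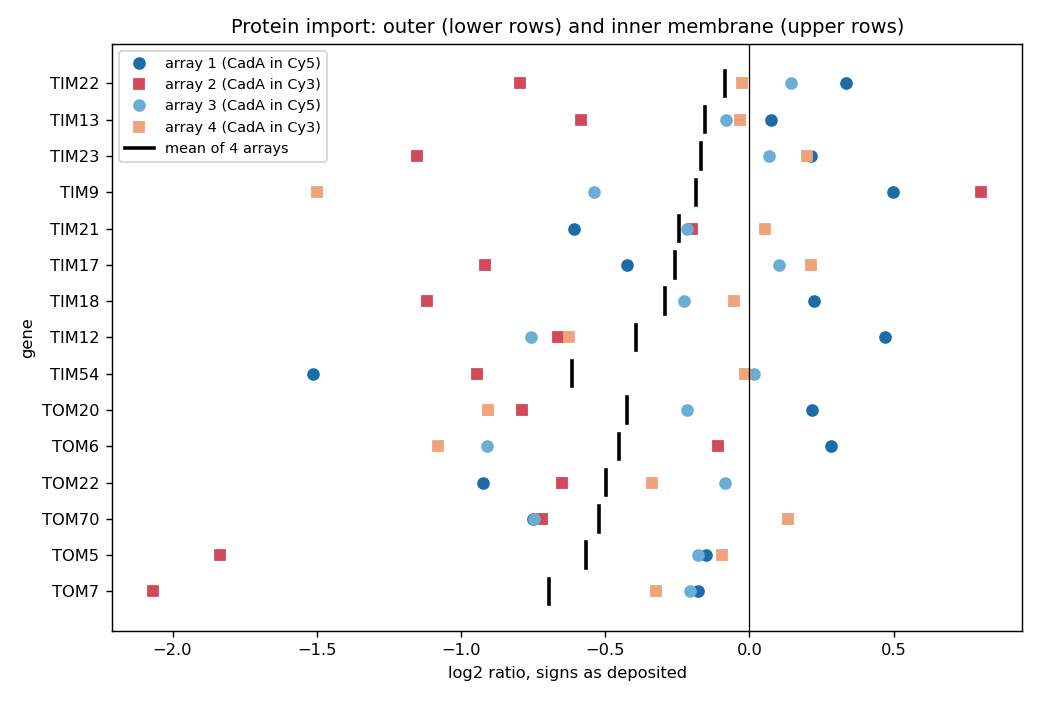
Log2 ratios in deposited signs of 6 outer membrane (lower rows) and 9 inner membrane import genes (upper rows) on each array, with circles for CadA in Cy5, squares for CadA in Cy3 and a black bar for the mean. All 15 means lie below 0, the widest values are those of TOM7 and TOM5 on array 2, and TOM22, TOM5 and TOM7 lie below 0 on all 4 arrays.

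Coding length moved with these values. It was taken as the gene length in the R64 table, and introns were not removed. A gene with an intron can therefore count as longer than its coding sequence, and how many genes this concerns was not examined. Whether this trend belongs to the dyes, the normalization or the strains cannot be told apart, and the same holds for what centring by length takes away. Of all 3098 named genes with a known length, 372 were shorter than 500 bases, and 87.9% of them had a negative mean in deposited signs, against 48.1% of the 2726 longer genes. The median was -0.30 for the short genes and 0.02 for the long ones, and the short genes' median lay below 0 on each array, at -0.37, -0.55, -0.18 and -0.20. In turned signs the same medians were -0.06 and -0.006. The respiratory and import genes are short: 31 of 65 were under 500 bases, and the median length was 546 bases. Among them 30 of the 31 short genes and 18 of the 34 longer genes had a negative mean in deposited signs. Of the short genes 10 of 31 (32.3%) were negative on all 4 arrays, against 23.9% of all short named genes, which include them. The 31 are also shorter: 15 of them lay below 300 bases, against 59 of the 372. Among longer genes it was 1 of 34 (2.94%), against 10.4%. None of the 31 short genes was positive on all 4 arrays, and neither was any of the 372 short named genes.

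The complexes differ in length. All 7 measured complex IV subunits were under 500 bases (180 to 462), as were both cytochrome c genes, 4 of 6 outer membrane import genes and 5 of 9 ATP synthase subunit genes. Only 2 of 6 complex II genes and 0 of 3 NADH dehydrogenase genes were. Below 300 bases the median in deposited signs was -0.506 for the 15 members and -0.506 for all 59 named genes. The named genes include the members, so the 2 values are not independent. Between 300 and 500 bases it was -0.32 for 16 members and -0.28 for 313 named genes. Across the 65 genes the rank correlation of length with the deposited mean was 0.57, against 0.32 across all 3098. It is a description only, since the genes share the same 4 arrays.

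**Figure D4:**
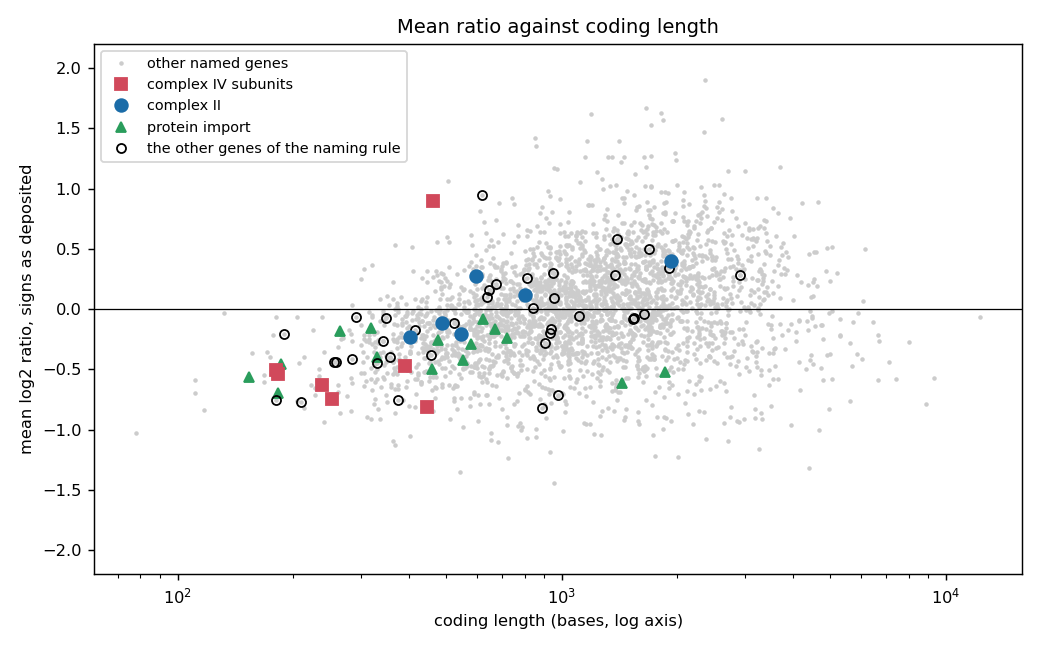
Each point is 1 named gene, with its coding length in bases on a log axis and its mean log2 ratio over 4 arrays in deposited signs. Complex IV subunits lie at the short end and, except COX5A, below 0, where short genes outside the group also lie, and complex II genes extend to longer lengths around 0.

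Each array was then centred on the median of genes of like length, a step chosen after the data were seen. By the median of gene means, complex IV subunits and outer membrane import stayed lowest in deposited signs, but the distance to complex II shrank. The median of complex IV subunits was -0.21, with 6 of 7 genes still negative, and that of outer membrane import was -0.21, with 6 of 6 negative. The NADH dehydrogenases came next at -0.16, with 2 of 3 negative. On arrays 1 to 4 the medians of complex IV subunits were -0.15, -0.49, 0.03 and 0.09. Those of outer membrane import were 0.24, -0.58, -0.045 and -0.12. Array 2 was the lowest in both groups. The median of complex II was 0.18, with 6 of 6 positive, and that of inner membrane import was -0.02. Over all 65 genes the median was -0.03 and 28 were positive. Of the 65 genes 4 (6.15%) were negative on all 4 arrays after centring, against 10.4% of all named genes, and 6 (9.23%) were positive on all 4, against 10.5%. COX6 (-0.57, -0.81, -0.52 and -0.32) and SCO1 (-0.76, -1.50, -0.66 and -0.37) were still negative on all 4 arrays, and COX20 (1.47, 1.97, 0.33 and 0.63) was still positive on all 4. TIM54 (-1.63, -0.97, -0.12 and -0.09) and TOM70 (-0.99, -0.73, -0.85 and -0.05) were now negative on all 4 arrays as well. The other 9 genes that had been negative on every array, namely COX7, COX8, COX12, COX17, ATP18, CYC1, TOM5, TOM7 and TOM22, no longer were. Besides COX20, the genes positive on every array after centring were ATP23, NDE1, CYT2, SDH3 and TIM13. No gene passed the threshold after this step (smallest limma adjusted p = 0.55).

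Within each array the complexes could be set against each other directly. In deposited signs the median of complex IV subunits lay below that of complex II by 0.73, 0.76, 0.25 and 0.42 on arrays 1 to 4 (mean difference -0.54 ± 0.25). After centring by length the differences were -0.57, -0.39, -0.008 and -0.32 (mean -0.32 ± 0.24). The sign was the same on 4 of 4 arrays in both, and on array 3 the difference after centring was close to 0. Against complex III the difference was -0.48 ± 0.24 before and -0.21 ± 0.08 after centring, again with 4 of 4 arrays negative. Against the ATP synthase subunits it was -0.28 ± 0.47, with 3 arrays negative, and -0.08 ± 0.37 after centring, with 2. In turned signs complex IV lay above complex II on arrays 1 and 3 and below it on arrays 2 and 4 (mean difference -0.05 ± 0.67). No test was made of these differences, because the genes were chosen with earlier results of these data known.

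**Figure D5:**
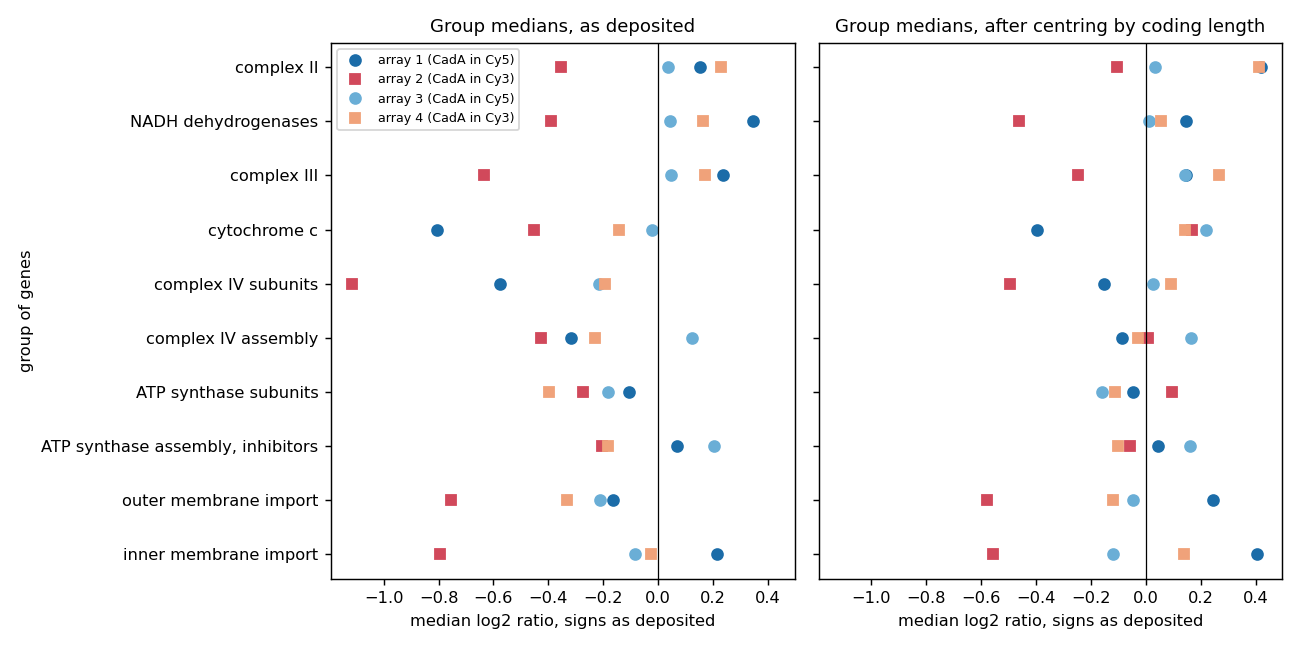
Median log2 ratio of each group on each array in deposited signs, before (left) and after (right) each array was centred by coding length, with circles for CadA in Cy5 and squares for CadA in Cy3. Complex IV subunits lie at -0.57, -1.11, -0.22 and -0.19 on arrays 1 to 4 on the left and at -0.15, -0.49, 0.03 and 0.09 on the right.

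Related genes of respiration with other names were taken from a fixed list of 92 genes, of which 52 were measured. None passed the threshold in either reading, and the median was 0.002 in turned signs and 0.006 in deposited signs, with 26 of 52 positive in each. HEM15, ferrochelatase, the last enzyme of haem synthesis, was positive on all 4 arrays in turned signs. It read 1.03, 1.21, 0.59 and 0.51 (mean 0.84 ± 0.34, limma adjusted p = 1.00), and in deposited signs it averaged 0.03 ± 1.02 with 2 arrays on each side. Of the 52 genes 3 were positive on all 4 arrays and 2 negative in turned signs, where all features gave 3.4% and 3.58%. HEM13, an earlier enzyme of the pathway, averaged 0.41 ± 1.38 in turned signs, and HEM2 was the lowest of 5 measured haem genes at -0.22 ± 0.75. In deposited signs both were positive, at 0.63 ± 1.27 and 0.27 ± 0.73. MGE1, the exchange factor of the mitochondrial Hsp70, averaged 1.29 ± 2.26 on the strength of 4.58 on array 2, and 0.19 without it. PAM17, of the import motor, was the lowest import gene of this list at -0.58 ± 0.75. In deposited signs MGE1 averaged 0.88 ± 2.50 and PAM17 0.07 ± 1.01.

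Regulators and other factors varied as widely. HAP4, the activating subunit of the Hap complex, averaged 0.096 ± 0.84 in turned signs and was positive on all 4 arrays in deposited signs at 0.61, 1.17, 0.52 and 0.34 (limma adjusted p = 0.42). HAP3, a DNA-binding subunit, averaged 0.16 ± 0.79 in turned signs and -0.35 ± 0.70 in deposited signs. The 12 measured genes of complex IV expression and assembly had a median of 0.02 in turned signs, with PET494 and PET54, translational activators of COX3, highest at 0.65 ± 1.07 and 0.46 ± 1.29. In deposited signs their median was -0.24, with 4 of 12 positive, and PET54 changed side to -0.53 ± 1.25. PET9, the main ADP/ATP carrier, averaged 0.65 ± 1.65 in turned signs and 1.17 ± 1.20 in deposited signs, with 2.73 on array 2.

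Genes outside the named roles were few. CYC8 matches the naming rule but encodes a general corepressor of transcription, and it averaged -0.12 ± 0.41 in turned signs over 2 probes with means of -0.22 and -0.02. SDH9 shares the SDH name of complex II genes but was missing from the lists of roles, so it was left out of the groups. It averaged -0.13 ± 0.67 in turned signs and 0.34 ± 0.56 in deposited signs. Probes of 1 gene differed by up to 0.70 in their turned means: the 3 probes of ATP18 averaged -0.007, -0.25 and 0.45, and the 2 of TIM13 -0.17 and -0.14.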

How the data were processed

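CadA and D398A strains were compared on 4 two-colour yeast arrays; per the labels, cDNA was labelled indirectly through aminoallyl-dUTP. The deposited values are 1 normalized log2 ratio per probe and array. The authors used limma 3.2.1, per the submitters' processing notes; their background correction, normalization, log base and numerator were not given in the sources used here. Base 2 was taken because limma works on that scale.

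Of 6216 probes, 6162 had values on all arrays, and 0 columns were left unused. Probes with 1 symbol were averaged per gene (5946 features). In R 4.3.3, limma 3.58.1 (lmFit, eBayes) tested whether a mean differed from 0; p-values were two-sided and adjusted by Benjamini-Hochberg over all features, at a threshold of 0.05, and the fit was tested on simulated data. Coding lengths were the gene lengths of the R64 table, from which introns were not removed. Length centring used 20 bins of equal gene number. Members and lists were chosen with earlier results of these data known. Values on every array are given for the 3 highest and lowest turned means, genes of 1 sign on all arrays, genes with an unadjusted p under 0.05 and paralog pairs; the rest are given by range, with the highest and lowest of a group named. No list was tested. Alternatives are listed in the closing section.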

Additional observations from a re-analysis of the deposited data

Results flagged for a closer look

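A sample was marked where its distance to the nearest other array, as a share of the whole range of 4 values, exceeded Dixon's 95% critical value. Chance marks about 1 in 20 sets, and of 75 sets in each reading (65 genes and 10 group medians) 6 were marked in turned signs and 8 in deposited signs. Array 2 was the distant one for SDH5 (-0.63, in both readings), TOM5 (-1.84, in both readings), TOM7 (-2.07, deposited signs) and TIM23 (-1.15, deposited signs). Array 1 was distant for COX23 (1.32 in turned and -1.32 in deposited signs), CYC1 (-1.34, deposited signs) and TIM12 (0.47, deposited signs). TIM12 was marked on array 3 in turned signs (0.76). Array 4 was distant for SDH9 (0.87, turned signs) and TOM70 (0.13, deposited signs). The median of ATP synthase assembly and inhibitor genes was marked on array 1 in turned signs, at -0.0676.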

How the results depend on the processing

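No gene of the group passed the threshold under any alternative that had a test, in either reading. Over all features the count in turned signs was 0 with 4 arrays, 4 with array weights and between 0 and 1 when 1 array was left out (1 without array 1). Leaving out 1 array changed the sign of the turned mean for 42 of 65 genes, including COX10 and TOM7 without array 2. Group medians moved by less than their SD over arrays in 268 comparisons and by more in 22, and the cause was not tested. The 268 include fits with a dye coefficient, which could not move because the dye swap is balanced. They also include fits on 1 probe per gene, which differ only for genes with several probes. The count is therefore no measure of stability. Read in deposited signs, the turned median of complex IV assembly genes went to -0.33 and that of ATP synthase assembly and inhibitor genes to -0.21. Restricted to arrays 1 and 2, whose wider spread prompted this split once the data had been seen, turned medians were -0.38 for complex II, -0.37 for NADH dehydrogenases and 0.033 for ATP synthase assembly and inhibitors, and deposited medians were -1.05 for complex IV subunits, -0.69 for complex IV assembly and 0.14 for ATP synthase subunits. On arrays 3 and 4 alone, deposited medians were -0.0525 for complex IV assembly, -0.46 for ATP synthase subunits and 0.0996 for ATP synthase assembly and inhibitors. Where CadA was in Cy5 (arrays 1 and 3), turned medians were 0.0766 for ATP synthase assembly and inhibitors and 0.25 for outer membrane import. For ATP synthase subunits in deposited signs the median was -0.296 with array weights and -0.25 with arrays scaled to 1 spread, and for assembly and inhibitors -0.0028 with array weights. Leaving out 1 array gave deposited medians between -0.49 and -0.0897 for complex IV assembly and between -0.28 and 0.0232 for ATP synthase subunits, and turned medians between -0.13 and 0.0336 for ATP synthase assembly and inhibitors. For complex IV subunits it gave between -0.69 and -0.34 in deposited signs and between -0.33 and 0.297 in turned signs. Each array held both strains, so every ratio already pairs them within an array, and no further pairing was made.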

Other observations

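Arrays 3 and 4, of opposite dye orientation, resembled each other more over the respiratory and import genes than over all features in deposited signs. Across the 65 genes their correlation was 0.678, against 0.224 across all features. After centring by coding length it was 0.592 across the 65 genes, and this was not computed across all genes. For arrays 1 and 2, also of opposite orientation, it was 0.32 and 0.344. The other pairs of opposite orientation gave 0.025 for arrays 1 and 4 and 0.005 for arrays 2 and 3 over the 65 genes. Over all features these pairs gave 0.066 and 0.002. The pairs of 1 orientation gave -0.081 for arrays 1 and 3 and 0.031 for arrays 2 and 4 over the 65 genes. Over all features they gave 0.171 and -0.022. These values are across genes, which share arrays and are not independent, and they describe these 4 arrays only.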
